A study of Mus musculus with 6 samples.

Results

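The ribosome biogenesis and nucleolar genes are a set of 43 genes, chosen by name, whose proteins build the 2 ribosomal subunits or run RNA polymerase I. Their transcripts were followed in the testis of mice given JQ1, a thienodiazepine that displaces BET bromodomain proteins (including the testis-restricted BRDT) from acetylated histones. Of the 43 genes, 31 were measured, among 11601 genes measured in all, where measured means that a probe of the gene had a detection p-value under 0.05 in 2 mice or more. Of their 79 probes, 51 met this rule, and 30 of the 31 genes were detected in every mouse. The annotation used here names no probe for Fbl or Ddx18. The other 10 genes, Dkc1, Nolc1, Utp14a, Utp15, Utp18, Utp20, Bysl, Wdr12, Nop16 and Rrs1, had probes that did not meet the rule (Utp14a was detected in 1 mouse), and no level is given for them.

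All mice were males of the strain labelled C57/129, treated every day from 6 to 12 weeks of age (6 weeks), and RNA came from testis. The control group was 2 mice given vehicle, and the JQ1 group was 3 mice given 50 mg/kg. Biotin-labelled RNA was hybridised to 6 single-colour Illumina bead arrays. Control mouse 1 was run on 2 arrays, which were averaged into 1 sample. Levels are log2 normalised signals, so a difference of 1 is a 2-fold change, and levels of different probes cannot be set against each other. A gene is represented by its brightest measured probe, and "rose" and "fell" mean an adjusted p-value under 0.05 in a moderated linear model (limma) fitted to all measured probes. With 2 mice against 3, the smallest p-value of an exact permutation test on a single gene is 0.1.

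Ribosome production starts in the nucleolus, where RNA polymerase I transcribes the ribosomal DNA into one long precursor RNA. Small nucleolar ribonucleoproteins of the box C/D and box H/ACA classes then guide methylation and pseudouridylation of that precursor, the small subunit processome folds and cuts the part that becomes the 40S subunit, and a separate set of factors matures the 60S subunit. In the testis the pathway is known to be active in dividing spermatogonia, in growing spermatocytes and in the somatic cells, and the nucleolus is dismantled as spermatids condense. Many of these genes are known in other tissues as targets of the transcription factor MYC.

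Among the 31 measured genes, 12 rose with JQ1 (38.7%), 4 fell (12.9%) and 15 did not pass the test. Over all measured genes 25.3% rose and 21.8% fell by the same test. One of the 12, Polr1b, met the detection rule only through JQ1 mice, and of the 30 members detected in both groups 11 rose and 4 fell. The genes that rose were Ubtf, Nhp2, Ncl, Rrn3, Pes1, Mybbp1a, Gar1, Ddx21, Nop56, Polr1b, Nol6 and Rrp1b, and those that fell were Pa2g4, Tsr1, Ddx52 and Polr1a. Changes of 2-fold were few: Ubtf and Nhp2 rose by at least that much and no member fell by it, where 8.53% of all genes rose and 2.87% fell by at least 2-fold. Which members pass 2-fold depends on the processing. Over the alternatives the log2 change was 0.80 to 1.28 for Ubtf, 0.87 to 1.14 for Nhp2 and 0.50 to 1.17 for Ncl. In 14 members (45.2%) every JQ1 mouse was above both control mice, against 34.4% of all genes, and in 6 members (19.4%) every JQ1 mouse was below both, against 32.1%. Of the 30 members detected in both groups, 13 were separated upward and 6 downward. The median change of the 31 genes was 0.25 on the log2 scale, from -0.61 for Pa2g4 to 1.15 for Ubtf, and that of all genes was 0.00. With Polr1b, which no control mouse detected, set to its bound, the member median was 0.23. Taken separately against the control mean, JQ1 mice 1, 2 and 3 gave member medians of 0.24, 0.35 and 0.28. The split of 12 higher and 4 lower was 14 and 1 after cyclic loess normalisation. It was 11 and 6 when arrays were scaled to equal medians. Over all genes the split moved too, from 2938 higher and 2526 lower to 3275 and 1939 after cyclic loess. With equal medians the all-gene split was 2633 and 3373, and with JQ1 mouse 2 left out it was 2515 and 1995. Without control mouse 1 no member fell (10 rose), and without JQ1 mouse 2 only 1 did (10 rose).

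**Figure D1:**
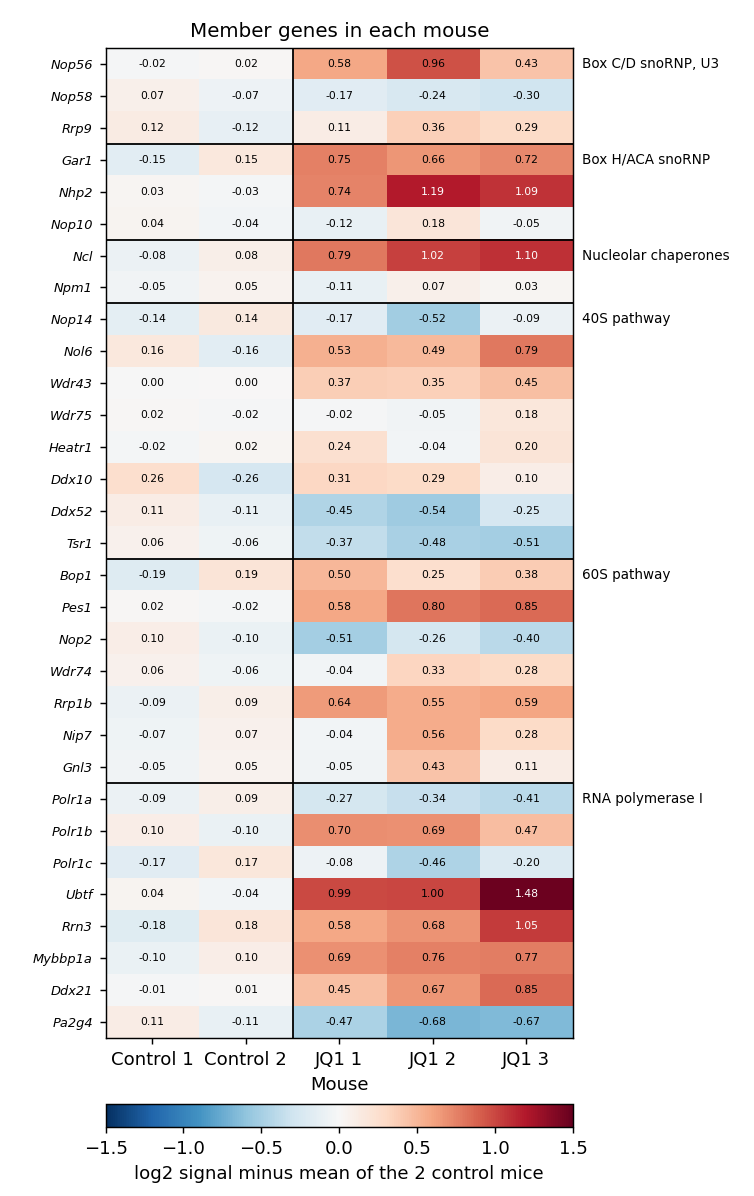
Level of each of the 31 measured genes in each of the 5 mice, as the log2 difference from the mean of the 2 control mice; rows are genes grouped by role, columns are mice, and red is higher and blue lower. The genes that rose, such as Ubtf, Nhp2 and Ncl, are red in all 3 JQ1 mice, while Npm1, Nop10 and Wdr75 stay pale in every mouse.

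Markers of the cell types of the testis moved with the treatment. Of 10 measured Sertoli cell markers 8 rose and 0 fell, and their summed signal was 14720 to 16511 in the control mice and 37310 to 44651 in the JQ1 mice. Gata1, among those 8, was detected in no control mouse and met the detection rule only through JQ1 mice. All 4 measured Leydig markers rose (9093 to 10641 in controls, 19017 to 26423 with JQ1), as did 4 of 7 peritubular and stromal markers (4391 to 5025, then 9328 to 11976) and 3 of 4 macrophage markers (428 to 876, then 1042 to 2017). Of 5 endothelial markers only Robo4 rose, by 3.02 on the log2 scale, and it carried the rise of their sum (261 to 283, then 802 to 921). The other 4 did not pass (Cdh5 0.21, Tek 0.13, Kdr -0.51, and Pecam1, which no control mouse detected). Of 9 measured spermatogonial markers 6 rose (2300 to 2415, then 3394 to 4069). Of the pachytene spermatocyte markers 3 of 6 fell (85957 to 93604, then 72020 to 76631), and of the round spermatid markers 3 of 8 (38454 to 40184, then 31631 to 34446). None of the 7 elongating spermatid markers passed the test (93964 to 96688, then 88315 to 95655), and the only measured epididymal marker of 4 listed was dim and did not pass either. The spermatocyte marker Ldhc read 14.97 in each of the 3 JQ1 mice. Whether the brightest germ cell markers were limited by the range of the normalised signal was not tested. Gata4, Wt1, Amh, Clu, Dmrt1 and Inhbb among the Sertoli markers and Hsd3b1, Hsd3b6 and Lhcgr among the Leydig markers were not measured here. Nor were Tagln among the stromal, Cd68 and Cd163 among the macrophage, Gfra1 among the spermatogonial, and Sycp3 and Adam2 among the spermatocyte markers. In bulk tissue, fewer cells of a type and less RNA per cell cannot be told apart, and the part of these shifts in the ribosome biogenesis results was not tested.

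RNA polymerase I and its regulators moved in both directions, with 5 of the 8 measured genes higher and 2 lower. Over all measured genes 25.3% rose and 21.8% fell. Of the 7 detected in both groups (all but Polr1b) 4 rose, and 1 of these, Ddx21, has a second probe with a change of opposite sign. Ubtf encodes UBF, the architectural factor that keeps ribosomal DNA open for transcription. Its level was 7.10 and 7.01 in the control mice and 8.05, 8.05 and 8.53 in the JQ1 mice. All 3 JQ1 mice stood far above both controls, a 2.23-fold rise (log2 change 1.15 ± 0.18 SE, limma adjusted p = 5.53e-05). Rrn3 encodes TIF-IA, the initiation factor that recruits the polymerase to UBF-bound promoters. It read 6.03 and 6.39 in controls and 6.79, 6.89 and 7.26 with JQ1, without overlap between the groups (1.71-fold, log2 change 0.77 ± 0.19 SE, limma adjusted p = 0.0038). The call was lost without control mouse 1 (limma adjusted p = 0.066).

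The subunits of the enzyme itself did not share 1 direction. Polr1a, its largest subunit, read 9.91 and 10.09 in the control mice and 9.73, 9.66 and 9.59 in the JQ1 mice. Every JQ1 mouse was lower, by a small margin (1.26-fold lower, log2 change -0.34 ± 0.13 SE, limma adjusted p = 0.048). That call had the highest adjusted p of the 16, and it was lost in 12 of 17 other processings, without control mouse 1 (adjusted p = 0.080) and control mouse 2 (0.29) among them. Polr1c, a subunit shared with RNA polymerase III, changed by -0.25 ± 0.16 SE and its groups overlapped (limma adjusted p = 0.20). Polr1b, the other large catalytic subunit, was not detected in either control mouse and was detected in 2 JQ1 mice. It entered the test only through those JQ1 mice, so its pass (limma adjusted p = 0.020) is not taken as support for a rise. With so dim a probe no fold is given. The call was lost without control mouse 2 and without JQ1 mouse 2 (limma adjusted p = 0.067 for the latter). The difference between the changes of Ubtf and Polr1a was 1.49 on the log2 scale and that between Rrn3 and Polr1a 1.11. In both pairs the within-mouse difference separated the groups, but the pairs were chosen after their values had been seen, so this is only a description.

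Mybbp1a, Ddx21 and Pa2g4 regulate ribosomal RNA synthesis or processing at several steps. Mybbp1a, a nucleolar MYB-binding protein described as a repressor of ribosomal DNA transcription, was 8.07 and 8.26 in controls and 8.85, 8.92 and 8.93 with JQ1. The 3 JQ1 mice lay close together and the rise was 1.67-fold (log2 change 0.74 ± 0.15 SE, limma adjusted p = 0.00056). Ddx21, a DEAD-box helicase that binds both ribosomal DNA and snoRNAs, rose from 8.16 and 8.19 to 8.62, 8.84 and 9.02 (log2 change 0.66 ± 0.16 SE, limma adjusted p = 0.0024). Pa2g4 (EBP1), a proliferation-linked protein that associates with ribosomes and pre-ribosomes, went the other way. It read 9.06 and 8.85 in controls and 8.48, 8.27 and 8.29 with JQ1, the largest fall of the 31 genes (1.52-fold lower, log2 change -0.61 ± 0.15 SE, limma adjusted p = 0.0032). Without control mouse 1 the adjusted p of Pa2g4 was 0.065.

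**Figure D2:**
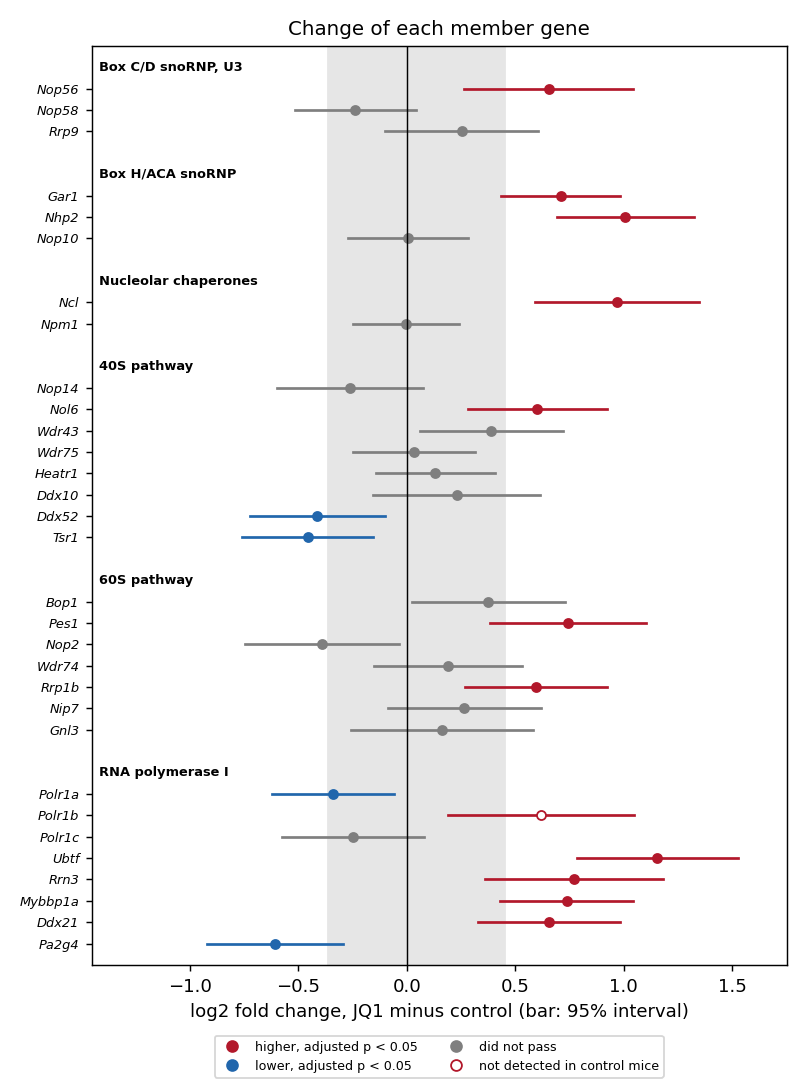
Log2 change with JQ1 of each measured gene (points) with its 95% confidence interval (bars, not adjusted for the number of genes), grouped by role; colours give the outcome of the limma test, the open point is Polr1b, which no control mouse detected, and the grey band spans the 25th to 75th percentile of all 11601 genes. Ubtf (1.15) and Nhp2 (1.01) lie farthest to the right and Pa2g4 (-0.61) farthest to the left.

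The promoters of several members carry the E-box CACGTG, the sequence to which MYC with its partner MAX is known to bind, so the windows were searched and the sites of the measured members are shown here. The window ran from 250 bases before to 50 bases after the transcription start (RefSeq, GRCm38.p6), and the motif is its own reverse complement, so both strands are covered by a single search. Of 38 members with a window, 8 held the motif (21.1%), against 8.09% of all genes of the table. Among measured genes the motif was in 6 of 28 members (21.4%) and in 11.3% of all genes. It was found in 3 of the 11 members that rose and have a window (27.3%), 1 of 4 that fell and 2 of 13 that did not pass (15.4%). The motif was thus in members called in either direction and in neither. The capitals below mark the motif, and positions count from the start of transcription. The sites of the genes that rose were Mybbp1a (+41, chr11:72441355-72441376), Pes1 (+3, chr11:3963965-3963994) and Rrn3 (-215, chr16:13780472-13780501, and -48, chr16:13780639-13780668). Tsr1, which fell, held it at +25 (chr11:74898092-74898121). Nop2 (-60, chr6:125131811-125131840) and Wdr43 (+18, chr17:71616220-71616249) did not pass the test. All lie on the + strand, and a match of letters is not evidence of binding in these samples.
Mybbp1a: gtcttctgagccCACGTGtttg
Pes1: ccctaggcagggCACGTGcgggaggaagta
Rrn3 distal site: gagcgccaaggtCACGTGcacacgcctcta
Rrn3 proximal site: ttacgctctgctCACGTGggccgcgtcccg
Tsr1: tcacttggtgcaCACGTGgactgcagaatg
Nop2: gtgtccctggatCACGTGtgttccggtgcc
Wdr43: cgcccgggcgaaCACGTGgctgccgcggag

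Transcripts of the MYC family were at the limit of these arrays. Neither probe of Myc and no probe of Mycn was detected in any mouse. Mycl and Max were detected in 2 JQ1 mice and in no control mouse, and neither passed the test (limma adjusted p = 0.13 and 0.23). A transcript below detection in whole testis may still be present in a minority of cells.

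The box H/ACA proteins, which pseudouridylate ribosomal RNA and also bind telomerase RNA, split 2 to 1. Of the 3 measured genes 2 rose and 1 did not pass, where 25.3% of all measured genes rose. Nhp2 read 9.00 and 8.93 in the control mice and 9.71, 10.15 and 10.05 in the JQ1 mice. The groups did not overlap, and the rise was 2.01-fold (log2 change 1.01 ± 0.15 SE, limma adjusted p = 4.52e-05). Gar1 rose from 10.42 and 10.73 to 11.33, 11.24 and 11.29 (1.63-fold, log2 change 0.71 ± 0.13 SE, limma adjusted p = 0.00029). Nop10, the smallest protein of the same particle, read 10.78 and 10.70 in controls and 10.62, 10.93 and 10.69 with JQ1. Its change was 0.01, with a 95% confidence interval from -0.27 to 0.28, so a rise of the size seen for Nhp2 or Gar1 lies outside that interval. The change of Nhp2 exceeded that of Nop10 by 1.00 and that of Gar1 exceeded it by 0.70. Neither within-mouse difference overlapped between the groups, but these pairs too were chosen after their values had been seen. Dkc1, the pseudouridine synthase of the particle, was not measured.

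In the box C/D class, which guides methylation, Nop56 rose and Nop58 did not pass the test. Both are core proteins of the same particle and are paralogs of each other. Nop56 was 6.59 and 6.63 in controls and 7.19, 7.57 and 7.04 with JQ1 (1.57-fold higher, log2 change 0.65 ± 0.19 SE, limma adjusted p = 0.0080), a call that was lost without JQ1 mouse 2 (0.061). Nop58 was 10.08 and 9.93 in controls and 9.83, 9.76 and 9.70 with JQ1. All 3 JQ1 mice were below both controls, yet the change of -0.24 ± 0.13 SE did not pass (limma adjusted p = 0.15). It did pass when arrays were scaled to equal medians (-0.40, adjusted p = 0.017). The within-mouse difference between Nop56 and Nop58 was -3.49 and -3.30 in controls and -2.64, -2.19 and -2.66 with JQ1, a shift of 0.89. Rrp9, a protein of the U3 particle that cuts the precursor, changed by 0.25 ± 0.17 SE with overlapping groups (limma adjusted p = 0.23).

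Of the abundant nucleolar proteins nucleolin and nucleophosmin, the transcript of the first rose and that of the second did not pass. Ncl, which encodes nucleolin, a binder of ribosomal DNA chromatin and of nascent precursor RNA, read 5.97 and 6.14 in the control mice and 6.85, 7.08 and 7.16 in the JQ1 mice. All 3 JQ1 mice were above both controls, and the group means differed 1.96-fold (log2 change 0.97 ± 0.18 SE, limma adjusted p = 0.00032). Npm1, which encodes the histone and ribosome chaperone nucleophosmin, read 12.37 and 12.47 in controls and 12.31, 12.49 and 12.45 with JQ1. The groups overlapped fully and the change was -0.00, with a 95% confidence interval from -0.25 to 0.24. With equal array medians Npm1 was lower (-0.39, limma adjusted p = 0.018), so its position depends on the scaling. The difference between the changes of Ncl and Npm1 was 0.97.

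Factors of the small subunit processome and of 40S maturation showed the smallest shift, with 1 of 8 measured genes higher, 2 lower and a median change of 0.08. The shares over all measured genes were 25.3% higher and 21.8% lower. Nol6, a structural protein of the processome, was 8.98 and 8.65 in controls and 9.35, 9.30 and 9.61 with JQ1 (1.52-fold higher, log2 change 0.60 ± 0.15 SE, limma adjusted p = 0.0039; without control mouse 2, 0.083). Tsr1, a GTPase-like factor that sits on late 40S precursors, was 9.03 and 8.91 in controls and 8.60, 8.49 and 8.45 with JQ1. Every JQ1 mouse was below both controls, and the group mean was 1.37-fold lower (log2 change -0.46 ± 0.14 SE, limma adjusted p = 0.016). Ddx52, the homolog of the yeast pre-ribosomal helicase Rok1, was 9.35 and 9.14 in controls and 8.80, 8.71 and 9.00 with JQ1, a 1.33-fold fall (log2 change -0.41 ± 0.15 SE, limma adjusted p = 0.031). Both falls were lost without control mouse 1 (limma adjusted p = 0.13 for Tsr1 and 0.25 for Ddx52), without JQ1 mouse 2 (0.050 and 0.12) and under cyclic loess (0.081 and 0.16). Ddx52 was also lost without JQ1 mouse 1 (0.051). The change of Nol6 exceeded that of Tsr1 by 1.06.

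The other processome genes did not pass. Wdr43, which links processome assembly to transcription of the precursor, came nearest: it read 7.30 and 7.31 in controls and 7.67, 7.66 and 7.76 with JQ1. Every JQ1 mouse was higher (log2 change 0.39 ± 0.16 SE, limma adjusted p = 0.052), and under cyclic loess the gene passed (0.021). Heatr1, the brightest of the group, read 10.77 and 10.82 in controls and 11.03, 10.75 and 10.99 with JQ1, with overlapping groups and a change of 0.13. Changes of the remaining members were 0.03 for Wdr75, which like Heatr1 acts on early precursor transcription, 0.23 for the helicase Ddx10 and -0.26 for the processome protein Nop14, and all 3 overlapped between groups.

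Among the 60S factors 2 of 7 measured genes rose and none fell. The share that rose was close to the 25.3% of all measured genes, of which 21.8% fell. Pes1 and Bop1 work in a single complex with Wdr12 that processes the precursor for the large subunit. Pes1 was 6.61 and 6.57 in controls and 7.17, 7.39 and 7.44 with JQ1 (1.67-fold higher, log2 change 0.74 ± 0.17 SE, limma adjusted p = 0.0019). Bop1 was 7.42 and 7.81 in controls and 8.11, 7.86 and 8.00 with JQ1, above both controls in each JQ1 mouse but short of the threshold (log2 change 0.37 ± 0.17 SE, limma adjusted p = 0.078; without control mouse 2, 0.038). The difference between their changes was 0.37, and here the within-mouse differences of the groups overlapped. Rrp1b, a nucleolar protein of 60S maturation that also targets protein phosphatase 1 to the nucleolus, was 7.38 and 7.56 in controls and 8.12, 8.03 and 8.06 with JQ1. That was a 1.51-fold rise (log2 change 0.60 ± 0.16 SE, limma adjusted p = 0.0047; without control mouse 1, 0.065).

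The remaining 60S genes did not pass. Nop2, a methyltransferase of 28S ribosomal RNA, read 7.60 and 7.39 in controls and 6.99, 7.24 and 7.09 with JQ1. Its 3 JQ1 mice were below both controls (log2 change -0.39 ± 0.17 SE, limma adjusted p = 0.068). Nip7, a processing factor and the brightest of the group, read 8.66 and 8.80 in controls and 8.69, 9.29 and 9.02 with JQ1, so that the groups overlapped through JQ1 mouse 1. Its change was 0.27 ± 0.17 SE (limma adjusted p = 0.21; without JQ1 mouse 1, 0.036). Wdr74, a late nucleolar 60S factor, changed by 0.19 and Gnl3, the GTP-binding protein nucleostemin, by 0.16, both with overlapping groups.

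Partner proteins were compared in 9 pairs that were chosen after their values had been seen, so these differences are a description. In 8 pairs the within-mouse difference did not overlap between the groups and the exact two-sided permutation p-value was 0.1, the smallest this design allows (0.11 after Benjamini-Hochberg adjustment over the 9 pairs). For Pes1 and Bop1 it was 0.30. Because the pairs were picked by their values, none of these p-values is evidence for a difference. The 9th pair was not of 2 genes but of the 2 probes of Ddx21. The share of separated groups among pairs not chosen by their values was not computed. Among single measured genes, 34.4% had every JQ1 mouse above both control mice and 32.1% had every JQ1 mouse below both.

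Of the 31 genes 14 had several measured probes. Both probes of Ubtf rose (1.15 and 1.06, limma adjusted p = 5.53e-05 and 7.26e-05), as did both of Ncl (0.97 and 0.89, limma adjusted p = 0.00032 and 0.0016). Of the 4 probes of Rrp1b 3 rose, by 0.60, 0.53 and 0.41, and the dimmest, not detected in controls, did not pass (limma adjusted p = 0.057). Mybbp1a rose on its 2 probes at 0.74 and 0.66 and not on the one at 0.29 (limma adjusted p = 0.26). The dimmer probe of Gar1 was detected in 2 JQ1 mice and no control mouse, so it met the detection rule only through JQ1 mice. It was at least 1.30-fold higher with JQ1 (limma adjusted p = 0.0083), but the rise of Gar1 rests on its brighter probe.

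The probes of Ddx21, Polr1a and Tsr1 did not all move alike. For Ddx21 the dimmer probe read 7.61 and 7.56 in controls and 7.34, 7.43 and 7.16 with JQ1, all 3 JQ1 mice below both controls, a change of -0.27 ± 0.16 SE (limma adjusted p = 0.19) against 0.66 on the brighter probe. The 2 probes thus separated the groups in opposite directions, and the rise of Ddx21 rests on one of them. In Polr1a the 3 brighter probes changed by -0.34, -0.43 and -0.45, of which only the brightest passed (limma adjusted p = 0.048, 0.085 and 0.098), and the dimmest by 0.45 (0.16). The dim probe of Tsr1, not detected in controls, did not pass (limma adjusted p = 0.12), and no fold is given for it. The same holds for the dimmer probe of Nop10, detected in 2 JQ1 mice and no control mouse (limma adjusted p = 0.83). For Bop1 the 2 probes changed by 0.37 and -0.16, for Heatr1 by 0.13 and -0.15 and for Wdr75 by 0.03 and -0.23, and none of these passed. The 3 probes of Nop2 all changed by negative values (-0.39, -0.14 and -0.13), and the 2 of Ddx10 by 0.23 and 0.26.

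**Figure D3:**
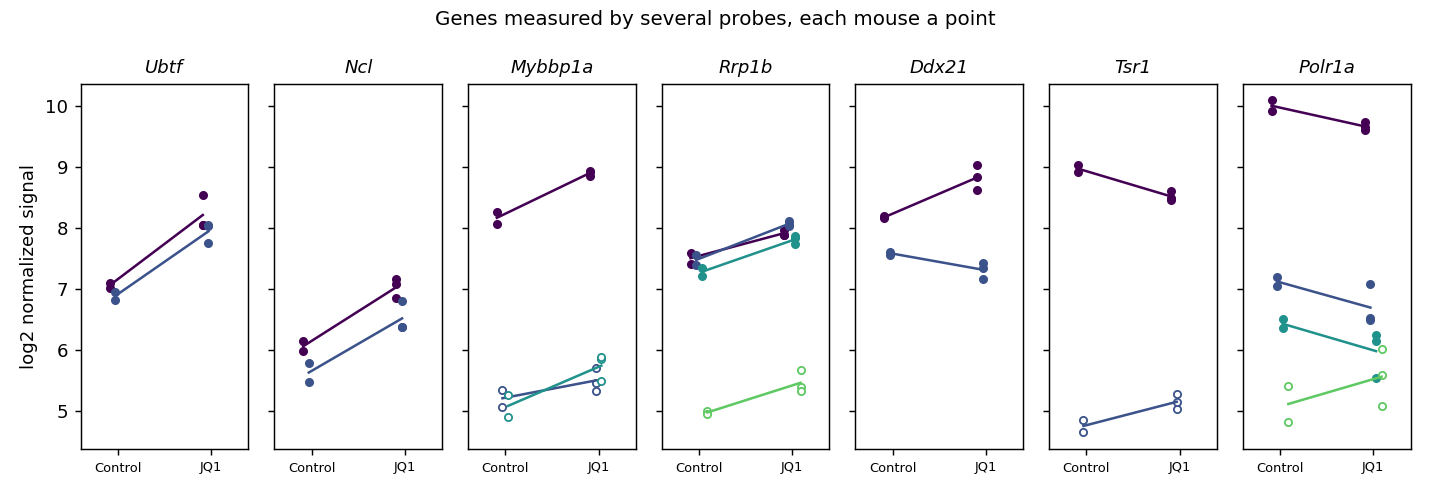
Log2 normalised signal of each measured probe of 7 genes in the control and JQ1 mice; a point is 1 mouse, a line joins the group means of 1 probe, a colour marks a probe within its panel and open points are probes not detected in all 5 mice. The 2 lines of Ubtf climb together (1.15 and 1.06), and those of Ddx21 run in opposite directions (0.66 and -0.27).

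A wider list of 106 other ribosome biogenesis genes, chosen with earlier results of these data known, is set beside these changes. Of its 91 measured genes 15 rose, 10 fell and 66 did not pass, smaller shares than the 25.3% and 21.8% of all genes. The median change was 0.05, and it was -0.04 with equal array medians and -0.01 when the probes of a gene were averaged, so it has no settled sign. No gene of this list rose by 2-fold and 1 fell by it. Without control mouse 1 the number that fell was 4.

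The 3 largest rises in that list were Utp6, a processome protein (6.10 and 5.96 in controls, 6.76, 6.94 and 7.28 with JQ1, log2 change 0.96 ± 0.19 SE, limma adjusted p = 0.00057), and the RNA exosome subunits Exosc7 (0.92 ± 0.14 SE, 4.19e-05) and Exosc8 (0.87 ± 0.17 SE, 0.00053). The exosome trims precursor ends, and its measured genes did not move as a block: Exosc4 also rose (0.42), the nuclease Exosc10 fell (-0.52 ± 0.15 SE, limma adjusted p = 0.0087), and Exosc1, Exosc2, Exosc3 and Exosc5 did not pass. The 3 largest falls were Nop9, whose yeast homolog acts in 40S precursor maturation (8.60 and 8.53 in controls, 7.16, 7.54 and 7.70 with JQ1, a 2.14-fold fall, log2 change -1.10 ± 0.17 SE, limma adjusted p = 7.87e-05), Aatf (-0.82 ± 0.13 SE, 9.77e-05) and the helicase Ddx51 (-0.74 ± 0.15 SE, 0.00061). Aatf works in a 40S complex with Ngdn and Nol10, which, looked up after their values were seen, rose by 0.54 and 0.39 (limma adjusted p = 0.0028 and 0.049).

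**Figure D4:**
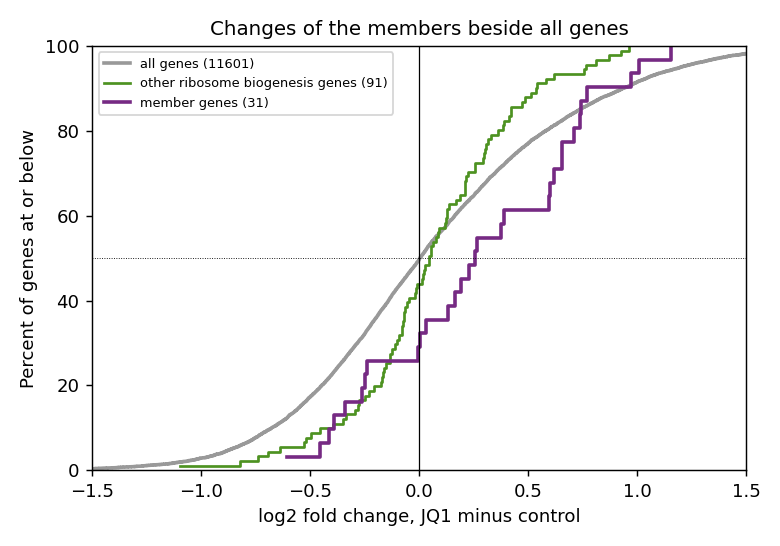
Cumulative percent of genes (vertical axis) at or below each log2 change with JQ1 (horizontal axis, from -1.5 to 1.5) in the 31 ribosome biogenesis and nucleolar genes, the 91 other ribosome biogenesis genes and all 11601 measured genes. The curves cross 50% at medians of 0.25, 0.05 and 0.00, and the members range from -0.61 to 1.15.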

How the data were processed

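Testis RNA of 2 control and 3 JQ1 mice was measured on 6 Illumina bead arrays, and groups follow the sample labels. The authors deposited, per probe and array, a raw signal intensity and a detection p-value, and a processed intensity that per the methods was background-subtracted and normalised. No source used here names the software of that step. Between 17799 and 20326 of 45281 probes per array were detected, with median raw signals of 101.8 to 142.2. The number of arrays limits the precision.

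The raw intensities were background-corrected in R 4.3.3 with limma 3.58.1 (normexp with an offset of 16, where detection p-values gave the mean and SD of the negative controls), quantile normalised and log2-transformed. Both arrays of control mouse 1 were averaged and differed with an SD of 0.27 over the measured probes, against 0.32 between the control mice. Of all probes 20554 had a detection p-value under 0.05 in 2 mice or more and were fitted with moderated variances and an intensity trend, with Benjamini-Hochberg adjustment over them. The script was tested on simulated data. The labels number the mice separately and say no more of their origin, so p-values measure the spread between these 5 samples. Where no mouse of a group detected a probe, a bound replaces the fold, computed against the higher of each array's lowest detected signal and the probe's own, and none is given where it is under 1.

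Genes were assigned to probes through the platform annotation (34885 probes with 1 symbol, 18 with several, 10378 with none), with symbols updated through GRCm38.p6 gene IDs. Promoters are from RefSeq, and 38 of 43 members matched a window. No protein sequences were used here. Members, marker lists and the list of other ribosome biogenesis genes were chosen with earlier results of these data known. By rule, each member that passed is named, values per mouse are given for the 5 largest changes in each direction, the brightest of each role group, 2-fold changes and genes whose probes differ in call, and 3 genes in each direction are named from the other list. Others were added after their values were seen. The alternatives were no background correction, an offset of 50, the authors' processed values, cyclic loess, equal array medians, detection in all 5 mice or no filter, 1 array of control mouse 1, leaving out each mouse, a replicate block, no intensity trend, the mean of a gene's probes and, in place of the marker selection test of the methods, a gene-by-gene unequal variance test on the authors' processed values.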

Additional observations from a re-analysis of the deposited data

How the results depend on the processing

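Under the 17 limma alternatives, 7 of the 12 genes that rose kept their call in each (Ubtf, Nhp2, Ncl, Pes1, Mybbp1a, Gar1 and Ddx21), and none of the 4 that fell did. For genes with 1 measured probe, such as Nhp2 and Pes1, the mean of a gene's probes is the main fit itself and could not change the call. For genes with several probes, the call under that alternative takes the lowest adjusted p of the probes times their number. For Ddx21 the mean change of its 2 probes was 0.19 against 0.66. For Tsr1 this mean was -0.03. No call of these 16 changed sign. The number of falls was 1 under cyclic loess and 2 without an intensity trend, and 0 to 3 when 1 mouse was left out (10 to 13 rises). The member median was 0.17 without background correction, 0.34 under cyclic loess, 0.14 without a filter (41 members), 0.19 over the mean of a gene's probes, and 0.20 to 0.31 with 1 mouse left out. In the other ribosome biogenesis genes, 16 fell with equal array medians and 4 to 9 with 1 mouse left out. Their median was 0.16 under cyclic loess, -0.042 with equal array medians, -0.013 over the mean of probes and 0.030 to 0.090 with 1 mouse left out. Over all genes 1586 to 2630 fell with 1 mouse left out. The cause of these shifts was not tested. The gene-by-gene unequal variance test on the authors' processed values called 0 members higher and 0 lower after adjustment, 0 and 0 of the other ribosome biogenesis genes, and 1 and 0 of all genes. At an unadjusted p-value under 0.05 it called 10 members higher and 1 lower, counted among the 31 measured members. Over all genes it called 3944 of 18073, with both directions together and no detection rule. The 2 counts therefore cannot be set against each other as shares.

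Mice 1 and 2 of the groups share only a number, and with 2 such pairs the deviations of same-numbered mice had a correlation of 0.11 across probes. With the replicate block 12 members rose, 3 fell and the median was 0.26, and Polr1a was lost (limma adjusted p = 0.098). JQ1 mouse 3 has no same-numbered control and adds nothing to the change in that fit. Its changes are therefore those without JQ1 mouse 3 (median also 0.26), and the block is not a separate check of them.

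Dim probes limit Polr1b, the second probes of Gar1, Tsr1 and Nop10 and the dimmest probe of Rrp1b, which no control mouse detected. A further 10 members lay below the detection rule. A small change in them could not be seen here.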
